A study of Homo sapiens with 24 samples.

Results

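The 10 genes described here code for proteins that sense, import, store, export and recycle iron: ACO1, IREB2, TFRC, SLC11A2, SLC40A1, FTH1, FTL, NCOA4, HMOX1 and FBXL5. They were taken by symbol from a deposited table of 60609 gene rows and 24 libraries. Each of the 10 matched 1 row and each was among the 16062 genes tested, which had 1 TPM or more in 3 or more libraries (TPM, the deposited unit, is a gene's length-corrected share of a library's transcripts, scaled so that every column has the same sum). ACO1 was chosen by its level under interferon, which had already been seen in these data, so its values stand as a description with no p-value. The other 9 were listed by role, also with earlier results of these data known. Their p-values are therefore not those of a list chosen blind.

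The cells were A549, a human lung adenocarcinoma line. For 48 h they carried either siBOP1, a pool of siRNAs against BOP1 (a factor needed to mature the large ribosomal subunit), or siFLuc, an siRNA against firefly luciferase, which human cells lack. A mock treatment, or interferon beta (IFN) at a dose of 1000 U/mL, followed for 8 h or 12 h, which makes 8 groups of 3 libraries. All cells, controls included, had been transfected, and a knockdown leaves part of the target in place: BOP1 in siBOP1 cells was at 23.5% to 29.6% of its siFLuc level over the 4 matched pairs of groups. The columns of each group are numbered 1, 2 and 4, and values of 3 libraries below follow that order. The labels do not say whether libraries of a group came from separate cultures, so p-values measure the spread between these libraries, which may be technical.

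Between 13844 and 14509 genes per library reached 1 TPM, and sequencing depth is unknown because TPM keeps none. Pearson r of log2 values within groups was 0.961 to 0.988. All 8 epithelial and A549 markers (such as KRT8, EPCAM and AKR1C1) reached 1 TPM in some library, with a summed level of 10404 to 13307 TPM. Of 14 markers of blood, endothelium, fibroblasts and red cells, 2 reached 1 TPM (CD14 and COL1A1), CD3E was at 0 in every library, and the 14 summed to 8.25 to 23.9 TPM. Libraries numbered 4 stood apart from numbers 1 and 2 in many genes. At 8 h 13.6% of all genes tested differed (limma adjusted p under 0.05), and at 12 h 36.4%. Among the iron genes, HMOX1 was lower in libraries numbered 4 by a log2 difference of 0.53 at 8 h and 0.54 at 12 h. FTL was higher by 0.35 and 0.34, while TFRC passed at neither time. For that reason each p-value below is given with a second one from a fit that holds the column number constant (a replicate block) wherever the block changes the call.

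Cells hold iron balance largely by controlling messenger RNA. Iron regulatory proteins bind a short hairpin, the iron-responsive element (IRE), when iron is scarce. Bound in the 5′ untranslated region (UTR) of the ferritin and ferroportin transcripts, they block translation, and bound in the 3′ UTR of the transferrin receptor transcript they protect it from decay. ACO1 codes for iron regulatory protein 1, which with an iron-sulfur cluster is cytosolic aconitase and without it binds the element. IREB2 codes for iron regulatory protein 2, which the iron-sensing ubiquitin ligase subunit FBXL5 marks for degradation when iron is plentiful. Ferritin, built of the FTH1 and FTL chains, stores iron, NCOA4 carries ferritin to the lysosome for release, TFRC and SLC11A2 bring iron in, SLC40A1 (ferroportin) lets it out, and HMOX1 (heme oxygenase 1) frees iron from heme.

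The elements are what tie transcripts to the ACO1 and IREB2 proteins, so every match found in the 10 genes is shown here. Transcripts of GENCODE 29 (GRCh38) were searched for a bulged C, 5 stem positions, the loop CAGTGN and the returning 5 positions, and 30 bases were cut around each match, written 5′ to 3′ on the transcript strand with T for U, with the bulged C and the 6 loop bases in capitals. With all 5 positions paired (G-T pairs allowed), FTH1, FTL and SLC40A1 each held 1 match in the 5′ UTR and TFRC held 4 in the 3′ UTR. The same rule found a match in 121 of the 12640 genes searched, or 0.957%. With 4 of 5 paired it found 1 more each in the 3′ UTR of SLC11A2, ACO1 and IREB2, at a rule met by 6.62% of genes, and none in HMOX1, NCOA4 or FBXL5. A match describes letters and is no measurement of binding.
FTH1, 5′ UTR, chr11:61967573-61967602, minus strand: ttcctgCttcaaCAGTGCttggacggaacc
FTL, 5′ UTR, chr19:48965335-48965364, plus strand: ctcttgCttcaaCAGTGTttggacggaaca
SLC40A1, 5′ UTR, chr2:189580660-189580689, minus strand: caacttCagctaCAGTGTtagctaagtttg
TFRC, 3′ UTR, chr3:196050978-196051007, minus strand: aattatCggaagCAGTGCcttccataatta
TFRC, 3′ UTR, chr3:196050574-196050603, minus strand: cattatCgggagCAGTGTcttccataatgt
TFRC, 3′ UTR, chr3:196050509-196050538, minus strand: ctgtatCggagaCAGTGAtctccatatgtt
TFRC, 3′ UTR, chr3:196050462-196050491, minus strand: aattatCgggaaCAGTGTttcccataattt
SLC11A2, 3′ UTR, chr12:50988268-50988297, minus strand: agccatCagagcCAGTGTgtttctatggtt
ACO1, 3′ UTR, chr9:32452986-32453015, plus strand: aagtatCttggcCAGTGTctcaaccttgcc
IREB2, 3′ UTR, chr15:78500969-78500998, plus strand: catttgCtttcaCAGTGAtgagtgagagga

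ACO1 (ENSG00000122729.19; protein-coding; chr9:32384603-32454769, plus strand) was lower in every IFN library than in any mock library, and lower at 12 h than at 8 h of IFN. In siFLuc cells it was 58.0, 51.5 and 44.6 TPM after mock treatment for 8 h and 24.5, 21.5 and 20.2 TPM after IFN for 8 h. At 12 h the mock libraries held 61.9, 59.6 and 54.6 TPM and the IFN libraries 12.5, 11.9 and 12.2 TPM. The IFN mean was thus 43.0% of mock at 8 h and 20.8% at 12 h, log2 differences of -1.18 and -2.17 (SE 0.10 each; all log2 differences here are of log2(TPM + 1), which understates changes of low genes). In bulk RNA, less transcript per cell and fewer cells with the transcript cannot be told apart.

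BOP1 knockdown left that pattern in place. In siBOP1 cells ACO1 was 62.0, 55.1 and 54.7 TPM (mock, 8 h), 24.3, 21.7 and 22.3 TPM (IFN, 8 h), 60.6, 66.8 and 54.9 TPM (mock, 12 h) and 13.4, 13.7 and 12.1 TPM (IFN, 12 h). The IFN means were 39.7% and 21.5% of mock, log2 differences of -1.29 and -2.13. Between the siRNAs the log2 difference of ACO1 was 0.16, 0.05, 0.04 and 0.09 (mock 8 h, mock 12 h, IFN 8 h, IFN 12 h; SE 0.10 each), and the libraries of the 2 siRNAs overlapped in each IFN group and in mock cells.

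The 8 group means fall into 3 tiers that do not overlap. The highest tier held the mock groups, with 60.8 ± 5.98, 58.7 ± 3.76, 57.3 ± 4.12 and 51.3 ± 6.72 TPM (SD, n = 3; siBOP1 12 h, siFLuc 12 h, siBOP1 8 h, siFLuc 8 h), and neighbours in that order overlapped. IFN for 8 h gave 22.7 ± 1.34 TPM in siBOP1 and 22.1 ± 2.21 TPM in siFLuc cells (SD, n = 3). IFN for 12 h gave 13.1 ± 0.842 and 12.2 ± 0.295 TPM (SD, n = 3). The change of the IFN difference from 8 h to 12 h was -0.996 in siFLuc and -0.84 in siBOP1 cells (log2, SE 0.15). These are values of a gene chosen on its IFN level and are read as no test. For that change, 0.00623% of all genes tested had a limma adjusted p under 0.05 (the rule for every call here) with siFLuc and 0% with siBOP1. The siFLuc share is 1 gene, ACO1 itself, and so is no background for it. None of the other 9 members passed. Before adjustment, 575 of the 16062 genes tested with siFLuc and 603 with siBOP1 had a p under 0.05, IREB2 with siFLuc alone among the 9.

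**Figure D1:**
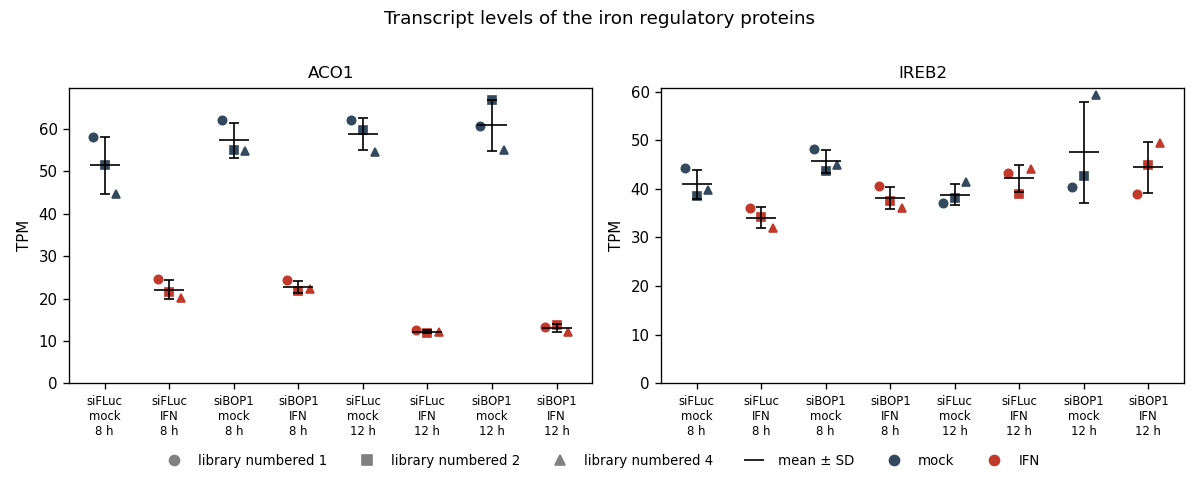
TPM of ACO1 (left) and IREB2 (right) in each library of the 8 groups, with mock in dark blue and IFN in red, marker shape giving the library number, and horizontal bars with whiskers giving the mean ± SD of 3 libraries. ACO1 sits in 3 separate tiers (mock, IFN 8 h, IFN 12 h), while IREB2 stays between 31.9 and 59.3 TPM.

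Among 10600 other genes with a mean of at least 5 TPM, the 5 whose log2 values over the 24 libraries were most like those of ACO1 were DANCR (Pearson r 0.966), CNTN1 (0.963), ATPSCKMT (0.958), GALNT11 (0.952) and ARPC1A (0.948). The libraries share their treatment groups, and these r values are a description. DANCR, a long noncoding RNA, averaged 57.4 TPM in siFLuc mock cells at 8 h, 13.6 after IFN for 8 h and 8.22 after IFN for 12 h. CNTN1, a neuronal adhesion molecule, averaged 181 TPM, 102 TPM and 73.2 TPM in the same groups. The opposite pattern was led by CXCL11 (r -0.973), a chemokine, which averaged 0, 6.24 and 12.7 TPM in those groups. CXCL11 met the mean of 5 TPM only through its IFN groups, and ACO1 was chosen on its IFN level. Its place in the ranking is therefore no test. It was followed by B2M (r -0.966), the light chain of major histocompatibility complex class I, which averaged 897, 2942 and 3915 TPM in those groups.

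IREB2 (ENSG00000136381.13; chr15:78437431-78501456, plus strand), the gene of the other iron regulatory protein, showed smaller differences. In siFLuc cells it was 44.3, 38.6 and 39.8 TPM in mock and 36.2, 34.1 and 31.9 TPM in IFN cells at 8 h. At 12 h it was 37.1, 38.0 and 41.3 TPM in mock and 43.3, 39.0 and 44.2 TPM in IFN cells. At 8 h the IFN libraries lay below all mock libraries and at 12 h the groups overlapped.

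The siBOP1 cells gave 48.1, 43.7 and 45.0 TPM of IREB2 in mock and 40.5, 37.6 and 36.1 TPM in IFN libraries at 8 h, again with no overlap. At 12 h they gave 40.5, 42.7 and 59.3 TPM against 38.9, 44.8 and 49.5 TPM, which overlapped. The log2 difference at 8 h was -0.26 with either siRNA (SE 0.12; limma adjusted p 0.200 and 0.163 for siFLuc and siBOP1), and with the replicate block the adjusted p was 0.0316 and 0.0252. At 12 h it was 0.12 and -0.08, with adjusted p of 0.591 and 0.729.

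As a share of the 2 iron regulatory protein transcripts together, ACO1 made up 55.6% to 60.2% in the 4 mock groups (group means). After IFN it made up 39.3% ± 0.992 (siFLuc) and 37.4% ± 0.791 (siBOP1) at 8 h and 22.5% ± 0.898 and 22.9% ± 3.00 at 12 h (SD, n = 3). The more abundant of the pair was therefore ACO1 in mock cells and IREB2 in IFN cells, by group means. As ACO1 was chosen on its IFN level, this shift of the share is a description. FBXL5 (ENSG00000118564.15), which controls the IREB2 protein, had group means of 32.4 to 42.0 TPM and no call in any of the IFN comparisons (log2 differences of 0.16 at 8 h and -0.21 at 12 h with siFLuc, and of 0.16 and 0.03 with siBOP1). With median-of-ratios rescaling the siBOP1 8 h value was 0.32 with an adjusted p of 0.0367. That rescaling moved the median log2 difference of all genes by 0.14 in this comparison, from -0.14 to -0.00491, and by 0.05 to 0.08 in the other IFN comparisons.

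The question asked of the other members was whether IFN changed them too. In siFLuc cells at 8 h, 1 of the 10 genes passed as higher (HMOX1) and 1 as lower (ACO1), against 5.77% and 5.07% of all genes tested. At 12 h none of the 10 passed as higher and 2 as lower (ACO1 and TFRC), against 7.06% and 6.43%. In siBOP1 cells at 8 h, 1 passed as higher (HMOX1) and 2 as lower (ACO1 and SLC40A1), against 5.99% and 9.11%, and at 12 h none as higher and 1 as lower (ACO1), against 7.17% and 7.58%. ACO1 was chosen on these contrasts and adds nothing to such counts, which leaves 1, 1, 2 and 0 of 9. At an unadjusted p under 0.05 the 4 comparisons gave 3, 2, 4 and 4 of these 9 in either direction, where 22.8%, 26.4%, 27.9% and 27.3% of all genes passed. With the replicate block 3, 3, 4 and 4 of the 9 passed, where 21%, 26.9%, 29% and 27.9% of all genes did.

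**Figure D2:**
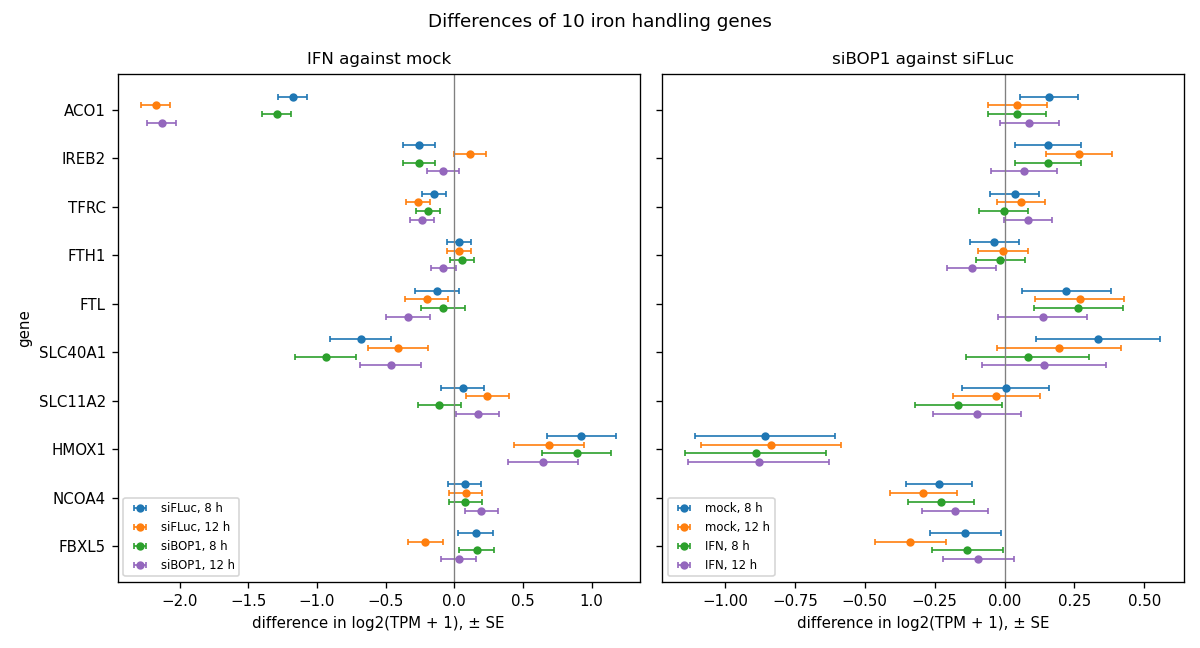
Log2 differences, each with its SE, of the 10 genes for IFN against mock (left) and siBOP1 against siFLuc (right), with 1 coloured point per siRNA or treatment and time. ACO1 stands far below 0 on the left and near 0 on the right, while HMOX1 is above 0 on the left (0.65 to 0.93) and below 0 on the right (-0.84 to -0.89).

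HMOX1 (ENSG00000100292.17; chr22:35380361-35394214, plus strand) was the one member that passed as higher under IFN, and its siBOP1 libraries lay below its siFLuc libraries in each setting. In siFLuc cells it was 165, 145 and 116 TPM in mock and 303, 266 and 239 TPM in IFN libraries at 8 h. At 12 h it was 244, 224 and 135 TPM in mock and 369, 301 and 281 TPM in IFN libraries. No mock library reached any IFN library at either time.

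In siBOP1 cells HMOX1 was 92.3, 88.2 and 56.5 TPM in mock and 175, 174 and 98.7 TPM in IFN libraries at 8 h. At 12 h it was 128, 120 and 83.5 TPM in mock and 188, 201 and 132 TPM in IFN libraries. Again each IFN library lay above all mock libraries of its time, and the library numbered 4 was the lowest of every group.

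IFN raised HMOX1 1.90-fold in siFLuc and 1.89-fold in siBOP1 cells at 8 h, log2 differences of 0.93 and 0.89 (SE 0.25; limma adjusted p 0.0194 and 0.0193). At 12 h the ratio was 1.58 and 1.57 (log2 0.69 and 0.65), with adjusted p of 0.0769 and 0.0929. With the replicate block the 12 h values passed as well (adjusted p 0.000227 and 0.0004). The 8 h calls were lost without the mock library numbered 4 or without the IFN library numbered 1 or 2 (adjusted p up to 0.0944 in siFLuc and 0.12 in siBOP1 cells).

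Between the siRNAs, HMOX1 in siBOP1 cells was 55.6% of its siFLuc level in mock cells at 8 h, 55.0% in mock cells at 12 h, 55.3% in IFN cells at 8 h and 54.7% in IFN cells at 12 h. In all 4 pairs of groups the siBOP1 libraries lay below all siFLuc libraries. The log2 differences were -0.86, -0.84, -0.89 and -0.88 (SE 0.25), and the limma adjusted p was 0.0888, 0.11, 0.0745 and 0.146, so that none passed. With the replicate block all 4 passed (adjusted p 0.00029, 0.000372, 0.000212 and 0.000584). The difference of the IFN effect between the siRNAs was -0.03 at 8 h (95% interval -0.78 to 0.71) and -0.04 at 12 h (-0.79 to 0.70), adjusted p 1 each.

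**Figure D3:**
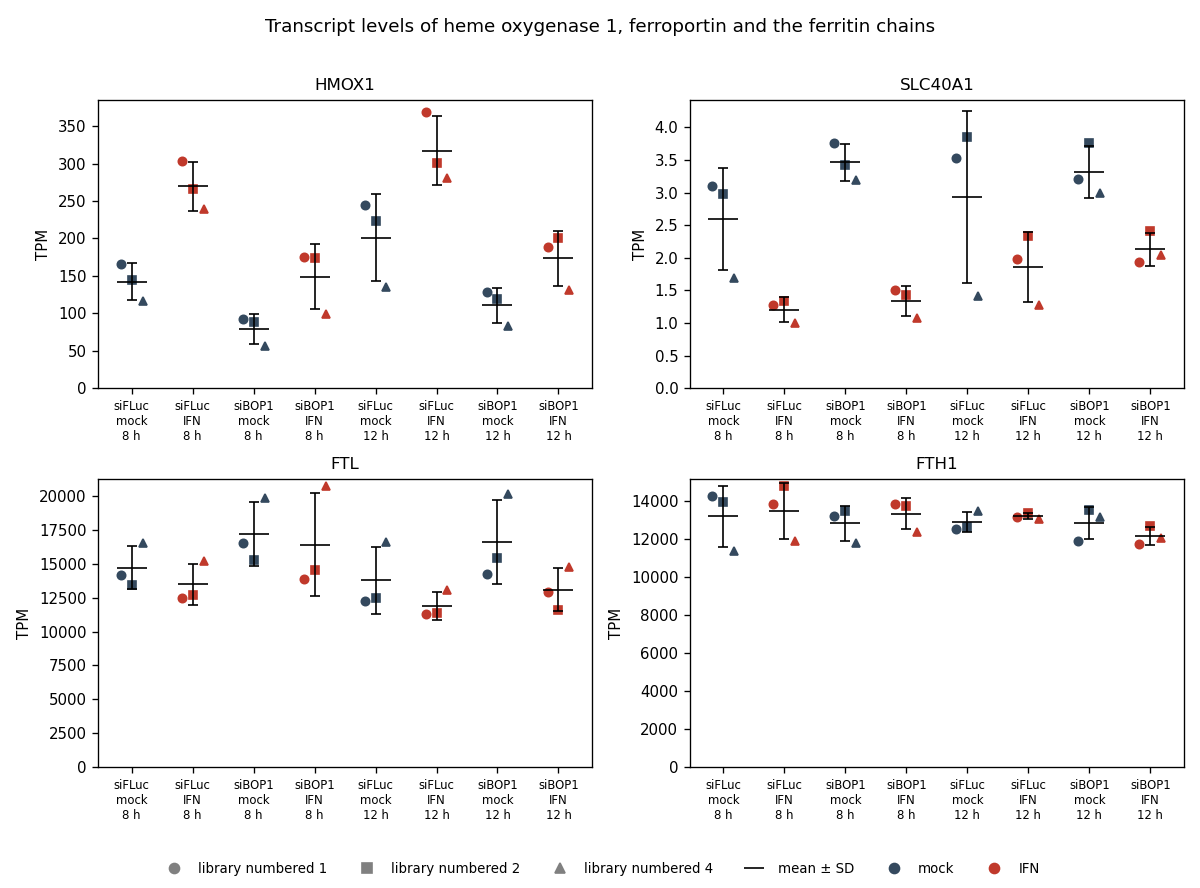
TPM of HMOX1, SLC40A1, FTL and FTH1 in each library of the 8 groups, with the same colours, marker shapes and mean ± SD bars as for ACO1. HMOX1 is higher in red than in blue and lower in siBOP1 than in siFLuc groups, SLC40A1 is at 0.995 to 3.85 TPM, and the triangles (library numbered 4) of FTL lie above the other libraries of every group.

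SLC40A1 (ENSG00000138449.10; chr2:189560579-189583758, minus strand), the only known iron exporter of animal cells, was the scarcest of the 10. In siBOP1 cells at 8 h it was 3.76, 3.42 and 3.20 TPM in mock and 1.51, 1.43 and 1.08 TPM in IFN libraries, with no overlap. The mean fell to 38.7% of mock, a log2 difference of -0.94 (SE 0.22; limma adjusted p 0.00563). This call held without any 1 of the 6 libraries (adjusted p 0.0135 to 0.0282).

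In siFLuc cells at 8 h SLC40A1 was 3.11, 2.98 and 1.70 TPM in mock and 1.28, 1.34 and 0.995 TPM in IFN libraries, which again did not overlap. The log2 difference was -0.68 with a limma adjusted p of 0.0528 (0.00619 with the replicate block). Of the 6 fits with 1 library left out, 1 passed, that without the mock library numbered 4 (adjusted p 0.0212). Elsewhere among them the adjusted p was up to 0.202. At 12 h the IFN means were 63.6% (siFLuc) and 64.2% (siBOP1) of mock, log2 differences of -0.41 and -0.46 (adjusted p 0.252 and 0.181, and for siBOP1 0.0427 with the block). The difference of the 8 h effect between the siRNAs was -0.25 (95% interval -0.91 to 0.40; adjusted p 1), so siBOP1 and siFLuc cells were not shown to differ here.

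Of the import genes, TFRC passed once. TFRC (ENSG00000072274.13; chr3:196027183-196082189, minus strand) in siFLuc cells at 12 h was 143, 132 and 143 TPM in mock and 118, 115 and 115 TPM in IFN libraries. The groups did not overlap, the IFN mean was 83.2% of mock, and the log2 difference was -0.26 (SE 0.09; limma adjusted p 0.0493). That call was lost without any 1 of the 6 libraries (adjusted p 0.0543 to 0.128). In siBOP1 cells at 12 h TFRC was 143, 140 and 153 TPM against 129, 117 and 124 TPM, 84.8% of mock (log2 -0.24, adjusted p 0.0729, and 0.00829 with the block). At 8 h the difference was -0.15 and -0.19 (adjusted p 0.330 and 0.158, the second 0.0291 with the block), and mock and IFN libraries overlapped with either siRNA. SLC11A2 (divalent metal transporter 1, which moves iron out of the endosome) had group means of 27.0 to 40.04 TPM, overlapped in all 8 comparisons of 2 groups and passed in none, with or without the block.

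The ferritin chains were the most abundant of the 10 transcripts. Together FTH1 and FTL made up 2.43% to 3.33% of all TPM in a library. FTH1 (ENSG00000167996.16; chr11:61959718-61967660, minus strand) had group means of 12155 to 13492 TPM, its IFN log2 differences ran from -0.08 to 0.06, and it passed in no comparison. The 95% intervals of its 4 IFN differences lay within -0.27 and 0.25. Processed copies of ferritin genes exist, and how shared reads were assigned is not given in the sources used here, so ferritin levels are uncertain to that extent.

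FTL (ENSG00000087086.15; chr19:48965301-48966878, plus strand) was lower under IFN at 12 h in each of the 3 numbers with either siRNA. In siBOP1 cells it was 14276, 15436 and 20151 TPM in mock and 12886, 11617 and 14800 TPM in IFN libraries, and the groups overlapped. The log2 difference was -0.33 (SE 0.16; limma adjusted p 0.181, and 0.00218 with the replicate block). In siFLuc cells it was -0.20 (adjusted p 0.468, and 0.0454 with the block). NCOA4, the ferritin receptor of autophagy, had group means of 76.5 to 99.3 TPM and log2 differences of 0.08 to 0.20 under IFN, none of which passed.

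For siBOP1 against siFLuc, none of the 10 genes passed. Of all genes tested, 1.49% passed as higher and 0.666% as lower in mock libraries at 8 h, 0.903% and 0.697% in mock libraries at 12 h, 1.25% and 0.76% in IFN libraries at 8 h, and 0.392% and 0.268% in IFN libraries at 12 h. At an unadjusted p under 0.05, limma found 1, 4, 1 and 1 of the 10 (12.9%, 12.8%, 13.6% and 8.99% of all genes), and HMOX1 was among them each time. With the replicate block 1, 4, 2 and 1 passed, where 8.49%, 7.66%, 8.81% and 3.77% of all genes did. Beside HMOX1 these were FTL, higher in siBOP1 mock cells at 12 h (log2 0.27, adjusted p with the block 0.0298) and in IFN cells at 8 h (0.26, 0.0294), and in mock cells at 12 h NCOA4 (-0.29, 0.0261) and FBXL5 (-0.34, 0.0319), both lower. Neither siRNA by IFN interaction gave a call in any gene tested (0% at 8 h and 0% at 12 h). Before adjustment 353 and 259 of the 16062 genes tested had a p under 0.05, none of them among the 10.

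Beyond the 10, 76 further genes of iron and heme handling were tested, of 88 listed. These lists were made with earlier results of these data known, so their shares are a description. With siFLuc at 8 h of IFN, 5.26% of them were higher and 11.8% lower (4 and 9 genes), against 5.77% and 5.07% of all genes tested. At 12 h these shares were 7.89% and 9.21% (6 and 7 genes), against 7.06% and 6.43%. With siBOP1 they were 5.26% and 15.8% at 8 h (4 and 12 genes), against 5.99% and 9.11%, and 6.58% and 14.5% at 12 h (5 and 11 genes), against 7.17% and 7.58%. Their median log2 difference was -0.15, -0.10, -0.17 and -0.12, where that of all genes was -0.09, -0.06, -0.14 and -0.08. With the replicate block 27.6%, 35.5%, 42.1% and 43.4% of the 76 passed in either direction (21, 27, 32 and 33 genes), against 21%, 26.9%, 29% and 27.9% of all genes.

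The role lists are small and their counts stand beside the same shares of all genes: 5.77% to 7.17% higher and 5.07% to 9.11% lower over the 4 comparisons, 21% to 29% in either direction with the block, and 22.8% to 27.9% before adjustment. By role, the 26 tested genes of uptake, release and systemic control held 4 or 5 of the higher and 3 to 5 of the lower calls in a comparison (4 to 7 and 4 to 6 with the block). Of 15 heme genes none was higher and 1 or 2 were lower (0 or 1 higher and 2 to 8 lower with the block and, at an unadjusted p under 0.05 by limma, 0 or 1 higher and 2 to 7 lower). The 27 genes of iron-sulfur cluster assembly supply the cluster that turns the ACO1 protein into aconitase. Of these, 0 or 1 was higher and 2 to 4 were lower (0 to 2 higher and 5 to 9 lower with the block). GLRX5, a mitochondrial glutaredoxin of that pathway, was lower in all 4 IFN comparisons by 0.33 to 0.43 on the log2 scale (SE 0.11) and was picked out after its values were seen. Of 8 other transcripts with a known or proposed IRE, 0 or 1 was higher and 0 to 2 lower (1 and 3 to 4 with the block).

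The genes named for rises and falls were picked for passing with 1 sign in all 4 IFN comparisons and for a large mean change. Their p-values come from those same comparisons and are no independent test. The rises were led by 2 genes. SLC25A28 (mitoferrin 2, which brings iron into mitochondria) went from 22.9 ± 3.34 to 103 ± 11.6 TPM in siFLuc cells at 8 h and from 22.8 ± 0.833 to 94.3 ± 19.2 TPM at 12 h (SD, n = 3). Its log2 differences were 2.13 and 1.98 in siFLuc and 2.48 and 2.27 in siBOP1 cells (SE 0.15), with limma adjusted p from 2.3e-11 to 1.15e-09. CP (ceruloplasmin, a copper enzyme that oxidises exported iron) went from 61.2 ± 15.8 to 143 ± 50.8 TPM in siFLuc cells at 8 h and from 64.7 ± 22.4 to 175 ± 60.6 TPM at 12 h (SD, n = 3). The CP log2 differences were 1.18, 1.42, 1.28 and 1.48 (SE 0.34), with adjusted p of 0.028, 0.0067, 0.0131 and 0.00449. SLC39A8, a zinc, manganese and iron importer, rose by 0.37 to 0.53 on the log2 scale (SE 0.09).

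The falls were led by STEAP3, FECH and SLC48A1. STEAP3 is the endosomal reductase that prepares transferrin iron for SLC11A2. FECH is ferrochelatase, which inserts iron into a porphyrin to make heme, and SLC48A1 is a heme transporter of the lysosome. All of these were picked by the same rule, so their p-values too are no independent test. STEAP3 went from 30.4 ± 3.94 to 19.0 ± 2.52 TPM in siFLuc cells at 8 h and from 28.3 ± 0.793 to 15.0 ± 1.65 TPM in siBOP1 cells at 12 h (SD, n = 3). Its 4 log2 differences lay between -0.87 and -0.58 (SE 0.14; limma adjusted p 0.000126 to 0.00701). FECH lay between -0.52 and -0.44 (SE 0.11; adjusted p 0.00203 to 0.00597) and SLC48A1 between -0.52 and -0.40 (SE 0.11; adjusted p 0.00375 to 0.0222).

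**Figure D4:**
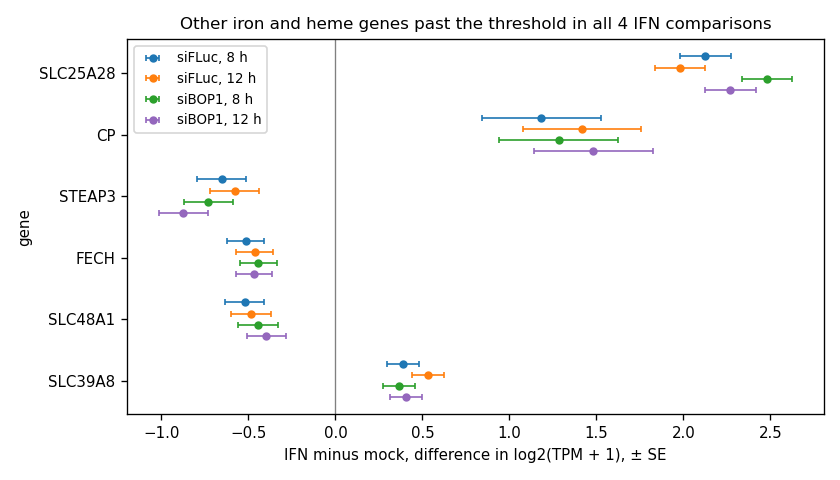
IFN minus mock log2 difference with its SE for the 6 genes of the wider lists with the largest mean change among those past the threshold with 1 sign in all 4 IFN comparisons, with 1 coloured point per siRNA and time. SLC25A28 (about 2.0 to 2.5) and CP (1.18 to 1.48) stand farthest to the right and STEAP3 farthest to the left.

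Between the siRNAs, limma called 3 of the 76 wider genes in each mock comparison (all higher), 3 under IFN at 8 h (2 higher, 1 lower) and 0 under IFN at 12 h. In the same order, 1.49%, 0.903%, 1.25% and 0.392% of all genes tested passed as higher, and 0.666%, 0.697%, 0.76% and 0.268% as lower. In the last comparison 9.21% of the 76 (7 genes) had an unadjusted p under 0.05, against 8.99% of all genes, and 5.26% (4) passed with the block, against 3.77%. ABCB6, a porphyrin transporter, was higher in siBOP1 cells in the first 3 of these comparisons, by 0.60, 0.76 and 0.77 on the log2 scale (SE 0.15; limma adjusted p 0.0427, 0.0115 and 0.00832), and by 0.64 in the last (0.0539, and 0.0162 with the block). PFN2, an actin-binding profilin with a proposed IRE in its transcript, was higher by 0.35, 0.36 and 0.36 in the same 3 (SE 0.08; adjusted p 0.033, 0.0294 and 0.0276) and by 0.36 in the last (0.0532, and 0.00388 with the block). ABCB6 and PFN2 were picked for passing with 1 sign in at least 2 of these comparisons, so their p-values are no independent test.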

How the data were processed

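Polyadenylated RNA of A549 cells was sequenced from libraries of a stranded mRNA kit, per the labels' protocols. The authors deposited 1 table of TPM per gene, and each of the 24 columns sums to 1000000. The aligner, quantification tool, genome build and annotation are not given in the sources used here, and without counts no depth, interval or floor for counting error can be given. Since every column has the same sum, strong rises of some genes lower all others.

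Of the columns, 16 carry a labelled replicate number (1 or 2). The other 8, numbered 4, were placed by group only, since the labels number replicates up to 3. No pair of columns was identical. The members and the wider gene lists were chosen with earlier results of these data known. Named genes followed a rule: all 10 members, the 5 genes most like ACO1, and up to 6 wider genes per family of comparisons with the largest mean change among those called with 1 sign in all 4 comparisons (or, if none, in 2 or more) and at least 5 TPM in a group. GLRX5, CXCL11 and B2M were added after their values were seen.

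In R 4.3.3, limma 3.58.1 fitted 8 group means to log2(TPM + 1) of all 24 libraries with a trended prior. Adjustment (Benjamini-Hochberg, threshold 0.05) ran over the 16062 genes that reached 1 TPM in 3 or more libraries. The fit was tested on simulated data. Alternatives were another pseudocount (0.1), no filter or a mean of 5 TPM, median-of-ratios or quantile scaling, no trend, only the groups compared, libraries numbered 1 and 2 alone, each library left out, and a block on the column number, separate for 8 h and 12 h. Deviations of same-numbered libraries from their group means correlated across genes at 0.115 to 0.508 in all 8 comparisons, above 0.1 each time. With deviations taken from the mean of numbers 1 and 2 alone, those 2 correlated at -0.01 to 0.156, above 0.1 in 3 of the 8. The pairing thus rests largely on the libraries numbered 4, and no label says what a number shares. IRE matches and coordinates came from GENCODE 29 on GRCh38, which may not be the annotation of the table. Values of some single genes are not reported here.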

Additional observations from a re-analysis of the deposited data

Results flagged for a closer look

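The IFN difference of ACO1 changed with time in siFLuc cells: it was more negative at 12 h than at 8 h, a change of -0.996 on the log2 scale (SE 0.15). In siBOP1 cells the change was -0.84. The siFLuc change is listed because its limma adjusted p was under 0.05, which that of the siBOP1 change was not. With the replicate block the siBOP1 change passed as well. The siFLuc change passed in 3 of 12 fits with 1 library left out. The listing therefore sets no contrast between siFLuc and siBOP1 cells. ACO1 was chosen on its IFN level, so these values are a description and no test of the change with time is read from them.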

How the results depend on the processing

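Each count of the 10 genes past the threshold and each gene value was recomputed under 9 settings and with each library left out. Of 120 gene values, 30 passed in some setting. Their 458 recomputed values never changed sign, 387 kept their side of the threshold, 33 lost it and 38 gained it. The 90 that passed in no setting changed sign in 140 of 1570 recomputed values. ACO1 stayed lower in all 4 IFN comparisons in every setting and without any 1 library. The filter at a mean of 5 TPM removed SLC40A1. For IFN in siFLuc cells at 8 h (2 of 10), 1 passed with no filter or quantile scaling, 3 with a pseudocount of 0.1, no trend or the libraries numbered 1 and 2 alone, and 1 to 2 with a library left out. In siBOP1 cells at 8 h (3), 2 passed with no filter or a mean of 5 TPM and 4 with median-of-ratios or quantile scaling. In siFLuc cells at 12 h (2), 1 passed with a pseudocount of 0.1, no filter, median-of-ratios, no trend or only the groups compared, 3 with the libraries numbered 1 and 2 alone, and 1 to 2 with a library left out. In siBOP1 cells at 12 h (1), 2 passed with quantile scaling, 4 with the libraries numbered 1 and 2 alone, and 1 to 2 with a library left out. With the replicate block the 4 IFN counts were 4, 4, 5 and 5, the 4 siRNA counts 1, 4, 2 and 1 (from 0), and the time by IFN count in siBOP1 cells 1 (from 0). The libraries numbered 1 and 2 alone gave 1 (HMOX1) in each siRNA comparison. In mock cells at 12 h a left-out library gave 0 to 1. The time by IFN count in siFLuc cells (1) was 0 with median-of-ratios, quantile scaling or only the groups compared, and 0 to 1 with a library left out. The block changed no call of the 10 genes other than those printed. The cause of these shifts was not tested.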

Other observations

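The next gene along chromosome 9 from ACO1 is RIGI (DDX58), the cytosolic sensor of viral RNA, at chr9:32455705-32526324 on the minus strand. The 3′ ends of the 2 genes face each other and lie 935 bases apart in GENCODE 29. RIGI went from 5.77 ± 0.757 to 340 ± 26.2 TPM in siFLuc cells at 8 h and from 7.66 ± 2.48 to 309 ± 25.6 TPM at 12 h (SD, n = 3), in the groups where ACO1 was lower. In siBOP1 cells RIGI went from 3.75 ± 0.213 to 272 ± 27.5 TPM and from 4.99 ± 1.39 to 238 ± 10.95 TPM (SD, n = 3). ACO1 is 1 of 13 protein-coding genes tested whose 3′ end faces, within 5000 bases or overlapping, a gene raised by IFN. Raised here means a log2 difference of 3 or more in all 4 IFN comparisons. Of the 13, ACO1 included, 2 or 3 passed as lower and 3 or 4 as higher in a comparison. Of all genes tested, 5.07% to 9.11% passed as lower and 5.77% to 7.17% as higher. VAT1 was also lower in all 4, and IFITM1, IFITM2 and IFITM3 were higher in all 4. IFITM1 and IFITM3 each entered as the raised neighbour of the other, so their rise was fixed by the rule. With ACO1 chosen on its IFN level as well, the counts of the 13 are a description and no comparison with those shares. The part of RIGI transcription in the ACO1 values was not tested.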
